A study of Mus musculus with 16 samples.

Results

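Expression of 10 genes of the unfolded protein response and the integrated stress response was followed in the retinal pigment epithelium (RPE) of mice, the pigmented cell layer that supports the photoreceptors. The 10 genes were picked by name, with earlier results of these data known. They fall into an ATF4 branch of 7 genes (Atf4, Ddit3, Trib3, Chac1, Asns, Sesn2 and Phgdh) and an endoplasmic reticulum (ER) chaperone branch of 3 genes (Hspa5, Xbp1 and Herpud1). All 10 were found among the 51912 genes of the deposited count table and among the 15380 genes that reached a mean of 1 CPM (counts scaled to a library of 1000000) and were tested. The study sequenced RNA from 16 eyes of 40-week-old male mice on a C57BL/6 background, in 4 groups of 4 libraries: wild type untreated, wild type exposed to hydroquinone, SUCNR1 KO untreated and SUCNR1 KO exposed to hydroquinone. SUCNR1 is a receptor for the metabolite succinate, and hydroquinone is a compound that the study used to impose oxidative stress. The dose, route and duration of hydroquinone, and the cells covered by the knockout, are not given in the sources used here. The sample titles name 13 mice, 2 in the untreated wild-type group, 4 in the exposed wild-type group, 3 in the untreated knockout group and 4 in the exposed knockout group, whereas the protocol speaks of 4 animals in each group. Replicates 1 and 2, and replicates 3 and 4, of the untreated wild type were the 2 eyes of 1 mouse each, and so were replicates 1 and 3 of the untreated knockout.

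Cells respond to a load of unfolded protein in the ER through the sensors PERK, IRE1 and ATF6. IRE1 splices the mRNA of Xbp1, and the spliced XBP1 protein together with ATF6 raises chaperones and degradation factors of the ER such as Hspa5 and Herpud1. PERK, like the kinases GCN2, PKR and HRI, phosphorylates the translation factor eIF2, which lowers general translation and favours translation of Atf4. ATF4 protein then raises genes of amino acid supply such as Asns and Phgdh and stress regulators such as Ddit3, Trib3, Chac1 and Sesn2. Much of this control acts on splicing, translation and protein cleavage, which a count of reads per gene does not record. The RPE is a secretory and phagocytic epithelium with a high demand for protein folding, and it depends on serine and glutathione supply to handle oxidants.

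The elements through which these factors are known to bind were searched in the RefSeq promoters of the 10 genes, from 250 bases before to 50 bases after the start site (GRCm38.p6), since ATF4, ATF6 and XBP1 act on the branches through them. All 10 genes matched 1 promoter each. Positions are those of the first base of the match in the direction of the gene, with the start base at 1 and the base before it at -1. The motifs, searched on both strands, were TGATGNAA (the element of ATF4 with C/EBP partners, found in 3.97% of 32851 promoters of this length), CCAAT with CCACG after 9 unspecified bases (the ER stress element, 0.119%), ATTGG with CCACG after 1 unspecified base (the second ER stress element, 0.0365%) and TGACGTG (bound by XBP1 and ATF6, 2.01%). No matches overlapped each other in the 10 promoters. The stretches around the matches of 4 genes are printed 5′ to 3′ on the strand of the gene, with the matches in capitals. They show the ATF4 element in Chac1 (chr2:119351034-119351071, plus strand) and Asns (chr6:7693210-7693247, minus strand), the XBP1 element and the ER stress element in Hspa5 (chr2:34771918-34772058, plus strand), and elements of both kinds in Herpud1 (chr8:94386302-94386402, plus strand).
Chac1: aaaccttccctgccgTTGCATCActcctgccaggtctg
Asns: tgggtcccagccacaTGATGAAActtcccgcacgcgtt
Hspa5: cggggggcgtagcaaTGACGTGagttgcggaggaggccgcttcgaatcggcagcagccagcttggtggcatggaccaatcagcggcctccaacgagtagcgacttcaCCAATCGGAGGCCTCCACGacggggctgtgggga
Herpud1: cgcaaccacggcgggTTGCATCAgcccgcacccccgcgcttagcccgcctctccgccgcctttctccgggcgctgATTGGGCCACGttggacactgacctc
The ATF4 element lay at position -193 in Chac1 and at -23 in Asns, and Trib3 had a match at position 15. Herpud1, a gene of the ER chaperone branch, held an ATF4 element at -112 beside the second ER stress element at -52. Hspa5 held TGACGTG at -157 and the ER stress element at -65. No match was found in the windows of Atf4, Ddit3, Sesn2, Phgdh and Xbp1. These positions hold for the RefSeq start sites. By the GENCODE vM21 spans given below, the element of Asns (span to chr6:7693254) lies inside the gene. So does the ER stress element of Hspa5 (span from chr2:34771970). A match is a run of letters and no measurement of binding.

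Library totals ran from 21113549 to 35332444 counts. All 12 RPE markers had counts in every library, among them Rpe65 at 2148 to 4338 CPM and Ttr at 6661 to 11300 CPM, while Best1 lay at only 0.985 to 3.33 CPM. RNA of other cells was present and varied widely between libraries. The 15 rod photoreceptor markers, all with counts in every library, summed to 301 to 25750 CPM, and the 6 corneal epithelium markers, likewise, to 3361 to 27660 CPM. The highest rod sums were in untreated knockout replicate 4 (25750 CPM) and exposed knockout replicate 1 (23400 CPM). Sucnr1, the targeted gene, gave 29 counts over the 8 wild-type libraries, of which 28 were in untreated mice, and 4 counts over the 8 knockout libraries, so at this depth it could not check the genotype labels, and comparisons by genotype are of the libraries as labelled. In the identifiers of 9 libraries there was no letter and in those of 7 there was one; what the letter stands for is not given in the sources used here, and exposed wild-type libraries were 3 of the first form and 1 of the second.

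The genes differed widely in abundance. Per kilobase of exon, averaged over the 16 libraries, Hspa5 (ENSMUSG00000026864, chr2:34771970-34777547, plus strand), which encodes the ER chaperone BiP, was highest at 145.2 CPM per kb. Phgdh (ENSMUSG00000053398, chr3:98313170-98339990, minus strand), the first enzyme of serine synthesis, followed at 89.1 CPM per kb. Atf4 (ENSMUSG00000042406, chr15:80255184-80257541, plus strand), the transcription factor at the centre of the integrated stress response, stood at 59.4 CPM per kb. Below these 3 came Xbp1 (ENSMUSG00000020484, chr11:5520659-5525893, plus strand), the substrate of IRE1, at 40.7 CPM per kb, and Herpud1 (ENSMUSG00000031770, chr8:94386438-94395377, plus strand), a factor of ER-associated degradation, at 33.1 CPM per kb. Ddit3 (ENSMUSG00000025408, chr10:127290774-127296288, plus strand), which encodes the transcription factor CHOP, had 23.5 CPM per kb. Chac1 (ENSMUSG00000027313, chr2:119351229-119354381, plus strand), an enzyme that degrades glutathione, had 22.8 CPM per kb. From Hspa5 down to Chac1, the ranges of neighbours over the libraries overlapped. Sesn2 (ENSMUSG00000028893, chr4:132492032-132510501, minus strand), a regulator of mTORC1, stood at 4.23 CPM per kb, and its range of 3.08 to 5.10 CPM per kb lay below every library of Chac1 and above every library of Trib3. The lowest were the pseudokinase gene Trib3 (ENSMUSG00000032715, chr2:152337422-152344032, minus strand) at 1.56 CPM per kb and Asns (ENSMUSG00000029752, chr6:7675169-7693254, minus strand), asparagine synthetase, at 1.29 CPM per kb. Gene coordinates are those of GENCODE vM21 on GRCm38. Trib3 rested on 46 to 192 counts a library and Asns on 43 to 246, against 11724 to 21456 for Hspa5, so the low pair carries the larger counting error. Overlapping genes limit 3 members: Ddit3 overlaps Mars and Gm4189, Herpud1 overlaps Gm15890 and Sesn2 overlaps Gm12981, and the strand setting of the counting is not given in the sources used here.

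The first question was whether hydroquinone moved the branches. None of the 10 genes passed an adjusted p of 0.05 (edgeR quasi-likelihood test, Benjamini-Hochberg over 15380 genes) for hydroquinone in wild type, where 0.0065% of all tested genes passed, in knockout, where 0.0455% passed, or averaged over both genotypes, where 0.0845% passed. DESeq2 and limma likewise called 0 of the 10 in these 3 comparisons. At an unadjusted p of 0.05, 0 of 10 were below it in wild type (4.28% of all genes), 2 of 10 in knockout (2.96%) and 2 of 10 averaged over genotype (5.72%). In wild type the ER chaperone branch sat at the level of all genes, with a median log2 fold change of 0.01, and in knockout all 3 of its genes were above 0 with a median of 0.31. The ATF4 branch had a median of -0.10 in wild type, with 3 of 7 genes above 0, and of 0.17 in knockout, with 5 of 7 above 0. The medians over all tested genes were -0.0002 in wild type and -0.0014 in knockout. Since the RPE was sampled in bulk, fewer cells of a type and less RNA per cell cannot be told apart in any of these values.

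**Figure D1:**
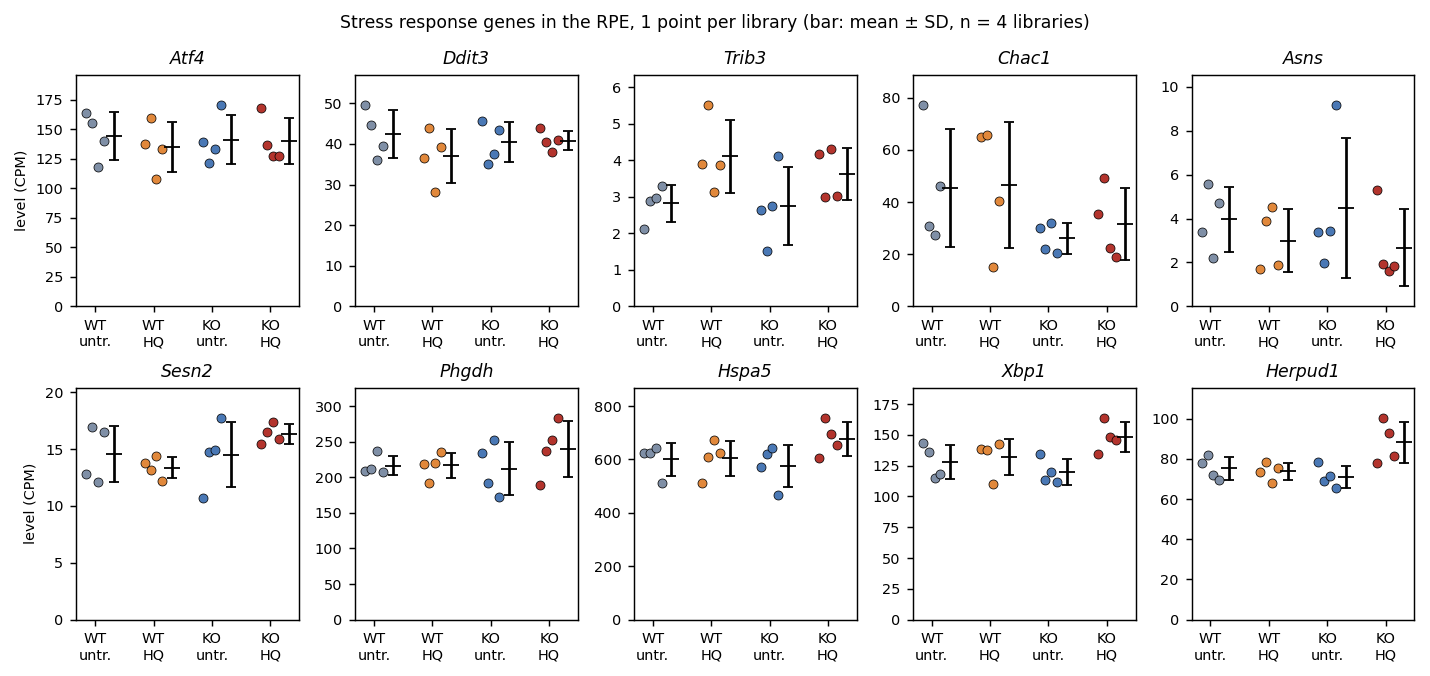
Levels of the 10 genes in CPM (vertical axes, each from 0) in the 4 groups, 1 point per library, with the mean and SD of the 4 libraries as a bar beside each group (untr., untreated; HQ, hydroquinone; WT, wild type; KO, knockout). The exposed knockout libraries reach 100.3 CPM for Herpud1 and 164 CPM for Xbp1, and single libraries stand apart for Asns (9.18 CPM) and Chac1 (77.3 CPM).

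Within the ER chaperone branch, the values that stood out were those of exposed knockout libraries. Herpud1 measured 77.8, 100.3, 93.1 and 81.4 CPM in exposed knockouts and 78.55, 68.8, 71.6 and 65.7 CPM in untreated knockouts. The lowest exposed library fell just below the highest untreated one, and the other three lay above all 4. The fitted ratio was 1.24-fold (95% interval 1.07 to 1.43), with an unadjusted p of 0.00595 and an adjusted p of 0.9999 in edgeR. In wild type, Herpud1 measured 73.7, 78.2, 68.1 and 75.2 CPM under hydroquinone and 77.9, 81.8, 71.8 and 69.5 CPM without it. These groups overlapped, and the ratio was 0.98-fold (0.85 to 1.13).

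Xbp1 measured 134.5, 164, 148 and 146 CPM in exposed knockouts and 134.4, 113, 119.9 and 112 CPM in untreated knockouts. The groups did not overlap, although the nearest pair of libraries lay side by side; 1.18% of all tested genes were higher without overlap in this comparison. The ratio was 1.24-fold (95% interval 1.05 to 1.45; unadjusted p 0.0127, adjusted p 0.9999 in edgeR). In wild type, Xbp1 measured 138.2, 138.0, 110.4 and 142.5 CPM with hydroquinone and 143, 136, 115 and 118 CPM without. Replicate 3 of the exposed wild types was low, the groups overlapped, and the ratio was 1.03-fold (0.88 to 1.21). Reads per gene do not separate spliced from unspliced Xbp1 mRNA.

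Hspa5 measured 604, 755, 694 and 652 CPM in exposed knockouts and 573, 619, 644.5 and 467 CPM in untreated knockouts. Of the exposed libraries, 3 lay above all the untreated ones and replicate 1 did not. The ratio of Hspa5 was 1.17-fold (95% interval 0.97 to 1.42; unadjusted p 0.0886 in edgeR). Exposed knockout replicate 1 was the lowest of its group for Hspa5, Xbp1 and Herpud1. Untreated knockout replicate 4 was the lowest of its group for the same 3 genes. These libraries had the highest rod sums of their groups (23400 and 25750 CPM), and the part of rod RNA in this order was not tested. In wild type Hspa5 measured 513, 609.7, 672 and 623 CPM with hydroquinone and 625, 622, 642 and 510.4 CPM without, so that each group held 1 low library. The ratio of 1.01-fold had an interval from 0.84 to 1.22. The log2 fold change in knockouts stayed above 0 for Herpud1 (0.24 to 0.36), Xbp1 (0.25 to 0.37) and Hspa5 (0.13 to 0.29) in all 29 alternative fits, and no fit called any of them.

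**Figure D2:**
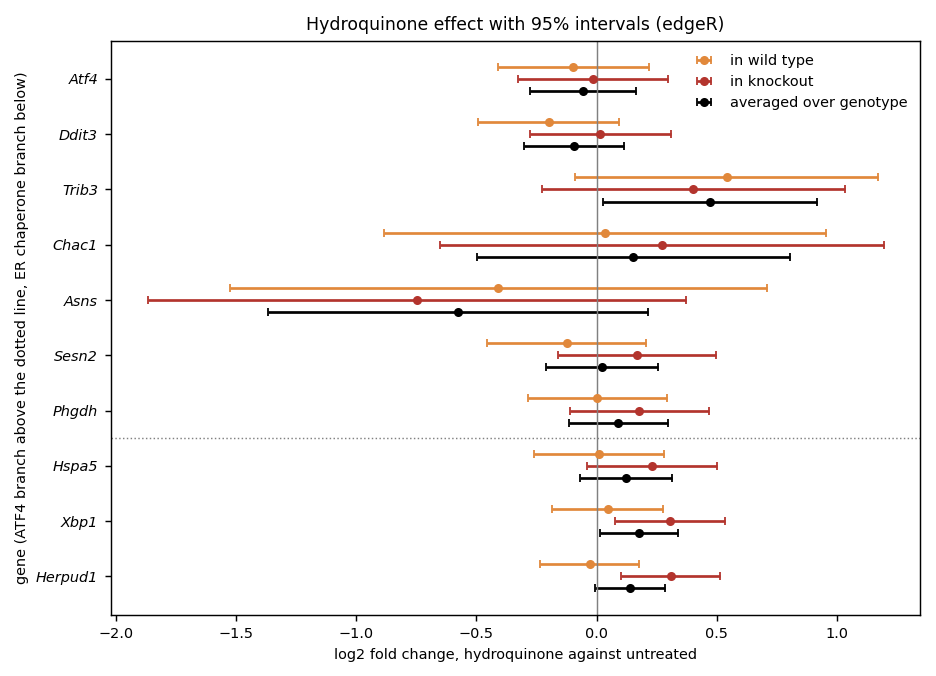
Log2 fold change of hydroquinone against untreated (horizontal axis) for each of the 10 genes (vertical axis), in wild type, in knockout and averaged over genotype, with 95% intervals from edgeR. The 3 genes of the ER chaperone branch lie between -0.03 and 0.05 in wild type and between 0.23 and 0.31 in knockout. The intervals of Chac1 and Asns are the widest.

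Whether the hydroquinone effect differed between genotypes was tested as an interaction. No member passed (0% of all tested genes did), and 1 of 10 had an unadjusted p below 0.05, against 1.92% of all genes. That gene was Herpud1, with a log2 difference of 0.34 (95% interval 0.05 to 0.63; unadjusted p 0.0257, adjusted p of 1 in edgeR). The difference was 0.26 (-0.07 to 0.59) for Xbp1 and 0.22 (-0.16 to 0.60) for Hspa5. The interaction shares the exposed knockout libraries with the comparison of hydroquinone in knockout, so it is not independent of it. Markers of other cells also differed between these groups. The median rod marker sum was 391 CPM in exposed and 2424 CPM in untreated knockouts, and that of 6 oligodendrocyte markers was 694 and 2744 CPM (197.1 and 3919 CPM in wild type). The 6 lacrimal and salivary gland markers were the one marker list with calls (5 in all, over its genes and the 6 comparisons). Only 2 of these 6 had counts in every library, and the list was chosen with earlier results of these data known. Their sum was lower with hydroquinone without overlap in both genotypes. It was 0.423 to 1.41 CPM in exposed and 10.3 to 31.5 CPM in untreated knockouts, and 0.913 to 2.62 against 21.2 to 42.3 CPM in wild type. Over the 13 mice Herpud1 had an r of -0.463 with the gland score (permutation test, adjusted p 0.347) and Xbp1 one of -0.511 (adjusted p 0.307). With group means removed the sign changed, to 0.346 for Herpud1 and 0.46 for Xbp1. The part of these cells in the ER branch values was not tested. With the rod score as a covariate the log2 fold change of Herpud1 in knockout was 0.28 and that of Xbp1 0.27.

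Within the ATF4 branch, Trib3 was the one gene with an unadjusted p below 0.05 for hydroquinone averaged over genotype. It measured 3.90, 5.52, 3.13 and 3.87 CPM in exposed and 2.12, 2.89, 2.96 and 3.31 CPM in untreated wild types. In knockouts it measured 4.17, 3.00, 4.30 and 3.03 CPM with hydroquinone and 2.63, 1.504, 2.74 and 4.10 CPM without. Exposed and untreated libraries overlapped in both genotypes. The averaged ratio was 1.39-fold (95% interval 1.02 to 1.89; unadjusted p 0.0394, adjusted p 0.868 in edgeR), and over 27 alternative fits the log2 value ran from 0.21 to 0.74 with no call. Xbp1 was the other gene below this unadjusted threshold, at 1.13-fold (1.01 to 1.26).

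Atf4 itself, whose protein is controlled mostly at translation, measured 138, 160.0, 108 and 134 CPM in exposed and 163.5, 155, 118 and 140.1 CPM in untreated wild types. In knockouts it measured 168, 136, 128 and 127 CPM with hydroquinone and 139.5, 122, 133 and 171 CPM without. The libraries of all 4 groups overlapped, and the averaged ratio of 0.96-fold had an interval from 0.825 to 1.12. Ddit3, the CHOP gene, measured 36.5, 43.9, 28.2 and 39.3 CPM in exposed and 49.65, 44.7, 36.0 and 39.5 CPM in untreated wild types. Its knockout values were 43.8, 40.4, 37.98 and 41.0 CPM with hydroquinone and 45.6, 35.05, 37.5 and 43.5 CPM without. The averaged ratio was 0.94-fold (0.81 to 1.08), on either side of no change.

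Sesn2 measured 13.8, 13.2, 14.4 and 12.15 CPM in exposed and 12.8, 16.9, 12.1 and 16.5 CPM in untreated wild types. In exposed knockouts it measured 15.4, 16.5, 17.4 and 15.9 CPM, and in untreated knockouts 10.7, 14.7, 14.9 and 17.7 CPM. Exposed libraries fell inside the range of untreated ones in both genotypes. The averaged ratio was 1.01-fold (0.86 to 1.19). Phgdh measured 219, 193, 220.5 and 235 CPM in exposed and 209, 212, 236 and 207.5 CPM in untreated wild types, which overlapped. Its knockout values were 189, 236, 252 and 283 CPM with hydroquinone and 233.5, 192, 252 and 172 CPM without. The averaged ratio of Phgdh was 1.06-fold (0.92 to 1.23).

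Asns and Chac1 varied most. Their highest library exceeded the lowest 5.67-fold and 5.15-fold, against 3.67-fold for Trib3 and 1.48-fold to 1.76-fold for the other 7 genes. Asns measured 1.68, 3.88, 4.52 and 1.87 CPM in exposed and 3.37, 5.59, 2.22 and 4.70 CPM in untreated wild types. In knockouts it measured 5.29, 1.95, 1.62 and 1.83 CPM with hydroquinone and 3.397, 2.00, 3.42 and 9.18 CPM without. The 2 highest knockout values were those of the 2 libraries with the highest rod sums. The averaged ratio was 0.67-fold with an interval from 0.39 to 1.16; the log2 value was -0.32 with the rod score as a covariate, 0.32 over the libraries without a letter and -1.66 over those with one. Chac1 measured 64.95, 65.6, 15.0 and 40.5 CPM in exposed and 77.3, 30.8, 27.4 and 46.0 CPM in untreated wild types. In knockouts it measured 35.6, 49.1, 22.4 and 19.0 CPM with hydroquinone and 30.2, 21.9, 31.99 and 20.4 CPM without. Each group ranged widely, and the averaged ratio of 1.11-fold had an interval from 0.71 to 1.75.

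The second question was whether the knockout differed from the wild type. In untreated mice no member passed (0% of all tested genes did), none had an unadjusted p below 0.05 (1.32% of all genes) and DESeq2 and limma called none. Of the 10 log2 fold changes, 9 were below 0, with a median of -0.05 over the 10 against 0.01 over all genes. Apart from Chac1 these ran from -0.10 for Xbp1 to -0.01 for Sesn2. Chac1, the farthest from 0, was at 26.1 ± 5.83 CPM in knockouts and 45.4 ± 22.8 CPM in wild types (mean ± SD over 4 eyes, of 3 mice and of 2 mice). The ratio of 0.58-fold (95% interval 0.30 to 1.09) had an adjusted p of 0.9999 in edgeR. With the corneal marker score as a covariate, added after seeing the data, the log2 value of Chac1 went from -0.80 to -0.59. Without untreated wild-type replicate 1, the library at 77.3 CPM, it was -0.41. The same corneal covariate changed the sign of Chac1 for the knockout under hydroquinone, from -0.56 to 0.14. For hydroquinone in wild type it took the log2 value of Chac1 from 0.04 to -0.33.

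Under hydroquinone no member passed either (0% of all tested genes did), and DESeq2 and limma called none of the 10. Herpud1 was the 1 gene with an unadjusted p below 0.05 (4.18% of all genes), at 88.2 ± 10.4 CPM in knockouts and 73.8 ± 4.24 CPM in wild types (mean ± SD, n = 4). Its ratio was 1.19-fold (95% interval 1.04 to 1.38; adjusted p 0.9999 in edgeR). This comparison shares the exposed knockout libraries with that of hydroquinone in knockout. Sesn2 was the 1 gene whose groups did not overlap, with exposed knockouts at 15.4 to 17.4 CPM and exposed wild types at 12.15 to 14.4 CPM, and 1.72% of all tested genes were higher without overlap in this comparison. The ratio of Sesn2 was 1.22-fold (0.97 to 1.53; unadjusted p 0.0832 in edgeR).

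Genes of the wider pathway were read from 3 lists outside the 10. A list of 36 integrated stress response genes (aminoacyl-tRNA synthetases, amino acid transporters and enzymes, stress regulators) had 33 tested members, as Pycr1, Fgf21 and Stc2 were below the abundance limit. None of the 33 passed in any comparison. Under hydroquinone, 15 of 33 were above 0 in wild type and 20 of 33 in knockout, with medians of -0.01 and 0.07. A list of 27 ER folding and degradation genes, all tested, also had no gene past the threshold. In wild type 15 of its 27 genes were above 0 with a median of 0.01. In knockout 24 of 27 were, with a median of 0.11, whereas 49.6% of all tested genes were above 0. The 27 genes were read from the same libraries and are not replicates of each other, so the count is a description. In knockout 2 of the 27 had an unadjusted p below 0.05 in edgeR (2.96% of all genes). For the knockout in untreated mice 9 of the 27 were above 0, against 53.2% of all genes. A list of 19 sensors and eIF2 controllers had 14 of 19 above 0 in wild type and 12 of 19 in knockout, with medians of 0.07 and 0.08, and none passed.

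**Figure D3:**
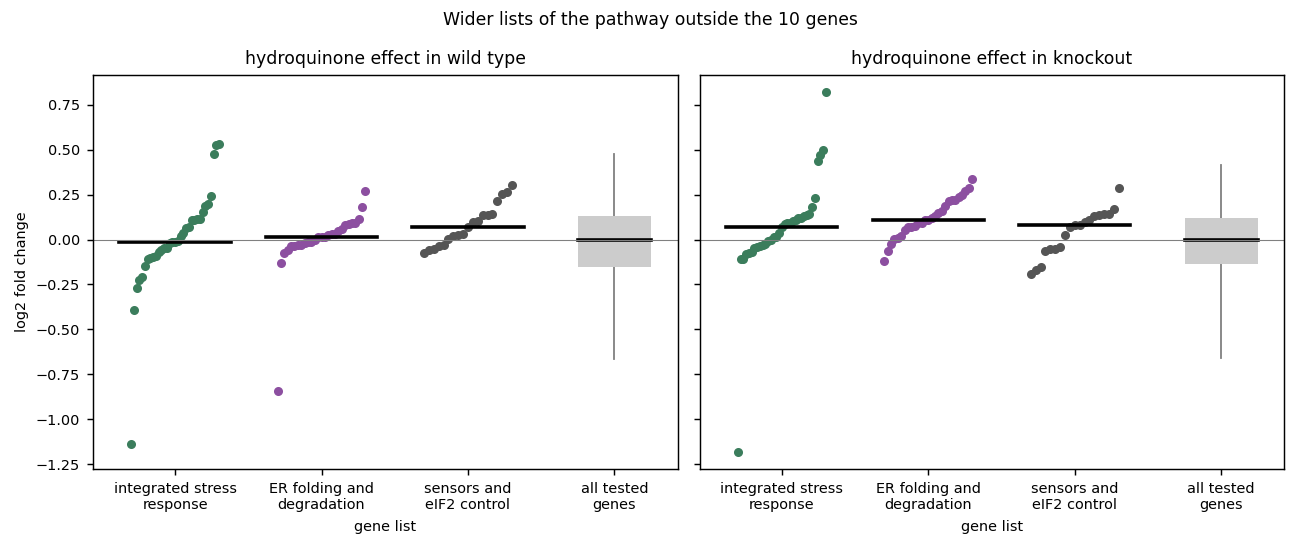
Log2 fold change of hydroquinone (vertical axis) for each tested gene of the 3 wider lists (1 point per gene, ordered by value, with the list median as a line) and for all tested genes (box from the 25th to the 75th percentile with the median, line from the 5th to the 95th percentile), in wild type and in knockout. Of the ER folding and degradation genes, 15 of 27 lie above 0 in wild type and 24 of 27 in knockout. The genes of a list were read from the same libraries and are not replicates of each other.

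From each list the 4 genes with the smallest p for hydroquinone averaged over genotype were read in detail, whether or not they passed. Hyou1 encodes an ER chaperone that works with BiP. It measured 131, 155, 160.3 and 149 CPM in exposed knockouts and 117, 125, 127 and 119.5 CPM in untreated ones, groups that did not overlap. The ratio was 1.22-fold (95% interval 1.06 to 1.41; unadjusted p 0.00945, adjusted p 0.9999 in edgeR), against 0.98-fold (0.85 to 1.13) in wild type. Edem1, which extracts misfolded glycoproteins for degradation, had a ratio of 1.21-fold (0.99 to 1.47) in wild type and 1.18-fold (0.97 to 1.43) in knockout. The knockout log2 value of Edem1 depended on the identifier form, at -0.03 over the libraries without a letter and 0.52 over those with one. The disulfide isomerase gene Txndc5 and the ER factor Creld2 had averaged log2 fold changes of 0.12 and 0.18, with intervals that included 0.

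Atf3, a transcription factor of the stress response, measured 13.9, 18.8, 12.8 and 13.6 CPM in exposed and 10.4, 11.6, 8.28 and 11.6 CPM in untreated knockouts, without overlap. For both Hyou1 and Atf3 this stands beside the 1.18% of all tested genes that were higher without overlap in knockout, and both were named for a small hydroquinone p. In wild type Atf3 measured 14.55, 31.65, 12.1 and 18.8 CPM with hydroquinone and 16.15, 15.5, 9.90 and 12.1 CPM without. The wild-type groups overlapped, and replicate 2 of the exposed wild types held the highest value. The averaged ratio was 1.43-fold (95% interval 1.08 to 1.87; unadjusted p 0.0148, adjusted p 0.823 in edgeR). Without exposed wild-type replicate 2 the averaged log2 value of Atf3 went from 0.51 to 0.34 and the wild-type value from 0.53 to 0.18. Gdf15, a secreted stress hormone, had levels of 1.94 to 3.42 CPM on average in the groups. Its ratio was 1.76-fold (1.04 to 2.99; unadjusted p 0.037, adjusted p 0.9999 in edgeR) in knockout and 1.08-fold (0.64 to 1.83) in wild type. The knockout log2 value of Gdf15 was 0.14 over the libraries without a letter and 1.52 over those with one. The tRNA synthetase genes Tars and Wars had averaged ratios of 1.12-fold (1.005 to 1.25) and 1.11-fold (1.00 to 1.22). Among the sensors, Eif2ak4, which encodes GCN2, measured 37.75, 34.3, 38.6 and 34.4 CPM in exposed and 31.3, 30.1, 28.0 and 32.04 CPM in untreated wild types. Those groups did not overlap (1.14% of all tested genes were higher without overlap), and the ratio was 1.19-fold (1.03 to 1.38; unadjusted p 0.0192, adjusted p 0.994 in edgeR). Eif2ak2, which encodes PKR, was also higher without overlap in wild type, at 55.3 to 65.4 CPM against 41.2 to 55.1 CPM, with a ratio of 1.23-fold (0.97 to 1.57). Eif2b2, a subunit of the exchange factor of eIF2, and Ppp1r15b, a subunit of the eIF2 phosphatase, had averaged log2 fold changes of 0.19 and 0.10, both with intervals that included 0.

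The third question was whether the genes of a branch varied together from mouse to mouse. Over 13 mice, with the eyes of a mouse averaged, the 45 pairs of genes were correlated on log2(CPM + 1), and 2 pairs passed after adjustment over the 45. Xbp1 and Herpud1 had a Pearson r of 0.90 (permutation test, adjusted p 0.0009) and a Spearman rho of 0.918 (adjusted p 0.00225). Without the 2 mice farthest from the median of Xbp1 the r was 0.868, and with group means removed it was 0.836 (permutation within groups, adjusted p 0.0391). The r was 0.896 over the 9 libraries without a letter and 0.885 over the 7 with one. The value with group means removed compares mice only with others of their own group.

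Atf4 and Ddit3 were the other pair, with a Pearson r of 0.858 (permutation test, adjusted p 0.00157) and a Spearman rho of 0.769 (adjusted p 0.0697, past the threshold for r and not for rho). The r was 0.821 without the 2 farthest mice, 0.881 with group means removed (adjusted p 0.0456), 0.883 over libraries without a letter and 0.784 over those with one. With the slope on the rod score removed, both pairs passed again, at 0.948 for Atf4 and Ddit3 and 0.869 for Xbp1 and Herpud1. No other pair within the ATF4 branch passed over the 13 mice. Asns with Atf4 had an r of 0.572 and Phgdh with Atf4 one of -0.572 (permutation test, adjusted p 0.262 for both). Over the libraries with a letter these were 0.941 and -0.922 (permutation test, adjusted p 0.0402 for both), and over those without 0.347 and -0.471. With the rod slope removed they were 0.0591 and -0.172. The median r was 0.15 over the 21 pairs within that branch, of which 13 were above 0, and 0.16 over the 21 pairs between branches. Of the 3 pairs within the ER chaperone branch only Xbp1 with Herpud1 passed. Hspa5 had an r of 0.712 with Herpud1 (permutation test, adjusted p 0.0888) and of 0.52 with Xbp1 (adjusted p 0.265), and without the 2 farthest mice these were 0.41 and 0.0665. Asns and Phgdh, both enzymes of amino acid supply, ran in opposite directions at -0.70 (permutation test, adjusted p 0.0888), and the value was -0.10 with the rod slope removed.

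**Figure D4:**
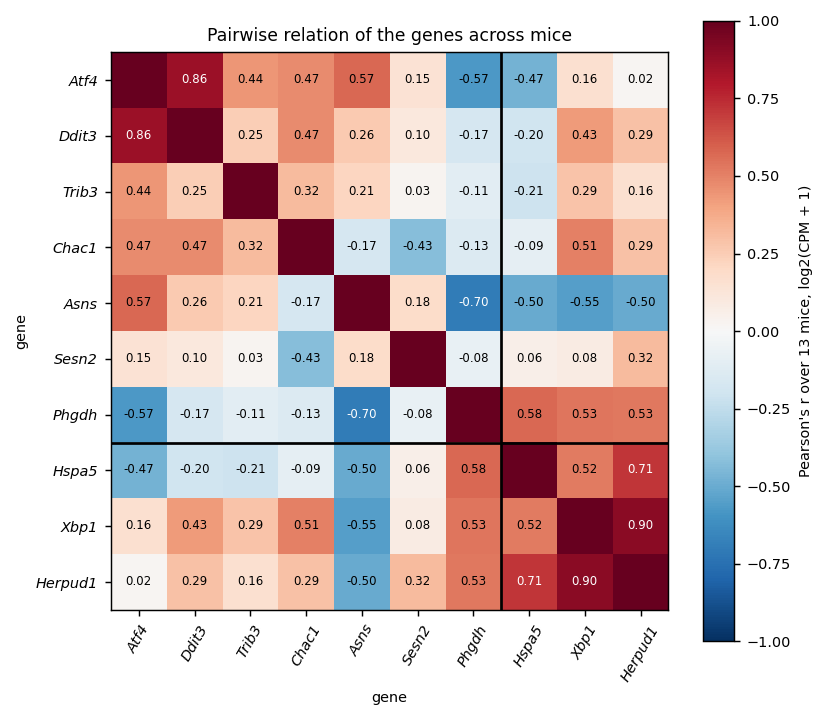
Pearson's r of log2(CPM + 1) over 13 mice for each pair of the 10 genes (both axes list the genes, ATF4 branch first, with a line between the branches). The strongest pairs are Xbp1 with Herpud1 (0.90) and Atf4 with Ddit3 (0.86), and Asns with Phgdh is the most negative (-0.70).

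Several members moved with markers of cell types across the mice. This family of 110 relations, 10 genes by 11 marker lists, was added after seeing the data, and 8 relations passed. Asns followed the rod score with an r of 0.867 (rho 0.841; permutation test, adjusted p 0.00935), and it was 0.836 without the 2 farthest mice, 0.626 over libraries without a letter and 0.966 over those with one. Asns also followed the score of other retinal neurons and glia at 0.934 (adjusted p 0.0066). That list of 14 genes shares Rlbp1 with the RPE list, and 10 of the 14 had counts in every library. Untreated knockout replicate 4 was the highest library for Asns, for the rod score and for the other retinal score. Chac1 followed the corneal epithelium score at 0.83 (rho 0.808; permutation test, adjusted p 0.0169), and that was 0.684 without the 2 farthest mice, 0.839 without a letter and 0.796 with one. The libraries with the most corneal RNA, exposed wild-type replicates 1 and 2, were among the 3 highest for Chac1. Phgdh followed the RPE score at 0.796 (adjusted p 0.0269) and ran against the rod score at -0.768 (adjusted p 0.0423) and against the other retinal score at -0.741 (adjusted p 0.0498). Atf4 ran against the RPE score at -0.782 (adjusted p 0.0343), and Chac1 against the endothelium score at -0.722 (adjusted p 0.0498). With group means removed, the r of Asns was 0.892 with the rod score and 0.941 with the other retinal score. That of Chac1 was 0.882 with the corneal score and -0.788 with the endothelium score. Phgdh had 0.861, -0.77 and -0.709 with the RPE, rod and other retinal scores, and Atf4 had -0.812 with the RPE score. None of these 8 had an adjusted p below 0.05 in the permutation test within groups, and the lowest was 0.0849. None of the 8 involved Hspa5, Xbp1, Herpud1, Ddit3, Trib3 or Sesn2. Short of the threshold, Hspa5 had an r of -0.67 with the rod score and -0.693 with the other retinal score (permutation test, adjusted p 0.108 for both). With the same 2 scores Herpud1 had -0.556 and -0.558 (adjusted p 0.259 for both). Xbp1 had -0.479 (adjusted p 0.347) and -0.537 (adjusted p 0.283). The part of the other cells in the levels of the 10 genes was not tested.

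**Figure D5:**
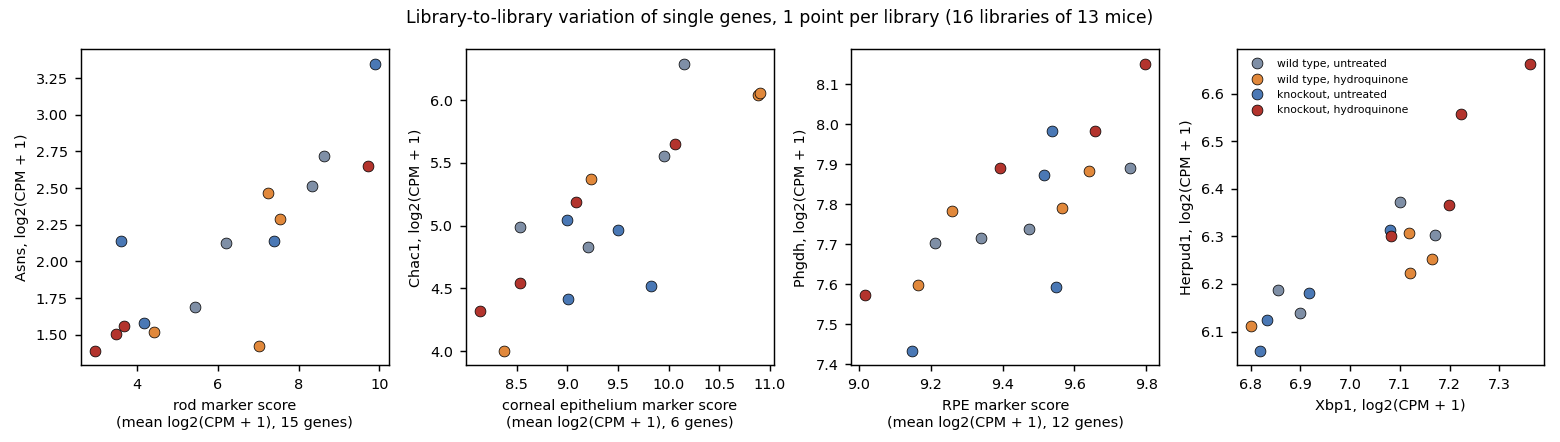
Log2(CPM + 1) of Asns against the rod score, of Chac1 against the corneal epithelium score, of Phgdh against the RPE score and of Herpud1 against Xbp1, 1 point per library (16 libraries of 13 mice, coloured by group). Each score averages log2(CPM + 1) over a marker list, and r over the 13 mice was 0.867, 0.83, 0.796 and 0.90 from left to right.

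Over the 16 libraries, the genes outside all lists whose levels were most like those of Asns were Ica1l (r of 0.954), Adgrb3 (0.948) and Camk2b (0.948). Those most like Hspa5 were Hsd17b4 (0.852), Lpl (0.831) and Brip1os (0.821). For Chac1, chosen after its values were seen, they were Prss22 (0.965), Prss8 (0.962) and Arpc1a (0.96). These likenesses are descriptions over libraries that share mice and differ in cell mixture.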

How the data were processed

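RNA of the RPE of 16 eyes was sequenced on an Illumina NovaSeq after the RPE was lifted from the choroid, per the labels' protocols. The deposited table is named for FPKM but holds whole-number counts per Ensembl gene as the authors left them (100% of values whole). The submitters' processing notes name STAR, Cufflinks, DESeq2 and mm10; what made the counts, and the annotation and strand setting, are not given in the sources used here. Symbols came from GENCODE vM21, which matched 51719 of 51912 identifiers, and promoters from RefSeq.

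Counts were fitted with edgeR 4.0.16 (R 4.3.3): TMM scaling, an abundance limit of 1 CPM on average, 4 group means in 1 quasi-likelihood model, Benjamini-Hochberg adjustment and a threshold of 0.05. CPM values use TMM-scaled library sizes. The tests treat eyes as independent, so p-values measure partly the spread between eyes of 1 mouse; fits with the eyes summed, and limma 3.58.1 with the mouse as a block (correlation -0.02), were alternatives, as were DESeq2 1.42.0, other scaling and filters, marker scores and identifier form as covariates, and libraries left out; the corneal score and the fits on 1 identifier form were added after seeing the data. Relations used 100000 permutations. The fit was tested on simulated counts with known changes of 2-fold and 4-fold, and smaller changes were not simulated. For hydroquinone in wild type it called 41% of the genes changed 2-fold and 79% of those changed 4-fold. In knockout these shares were 42% and 82%. Of 124 calls in wild type 4 were false, and of 132 in knockout 8 were. The named genes are the 10, the 4 genes with the smallest averaged p of each wider list, the 3 genes most like Asns and Hspa5, and Sucnr1. The 10 genes and all lists were chosen with earlier results of these data known.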

Additional observations from a re-analysis of the deposited data

Results flagged for a closer look

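Each of the 10 genes was searched in each of the 4 groups for a library far from the other three by Dixon's test (40 sets, in which chance alone would mark about 2), and 3 libraries were marked. The chance count takes the 4 values as independent, which the eyes of 1 mouse in the untreated groups are not. Asns in exposed knockout replicate 1 was high at 5.288 CPM, while the others lay at 1.62 to 1.95 CPM; this library had a rod marker sum of 23400 CPM, against 301 to 401 CPM in the others. Hspa5 in untreated wild-type replicate 4 was low at 510.4 CPM, with the others at 622 to 642 CPM, of which the highest was the other eye of the same mouse. Xbp1 in exposed wild-type replicate 3 was low at 110.4 CPM, with the others at 138.0 to 142.5 CPM; Atf4 (108 CPM), Ddit3 (28.2 CPM) and Chac1 (15.0 CPM) also had their lowest value of all libraries there. None of the 10 genes was called with these libraries or without any 1 of them.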

How the results depend on the processing

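None of the 10 genes was called in any alternative run: 29 for each comparison of 2 groups and 28 for the averaged and interaction comparisons, to which the fit on only the groups compared does not apply (1 fewer for Trib3 and Asns). Of these, 16 left out 1 library. Of the 60 log2 fold changes, 29 kept their sign in every alternative and 31 changed it at least once, none of them called. The median of the ATF4 branch for the interaction (0.18) ran from -0.0117, without exposed wild-type replicate 3, to 0.195 over the fits that left out 1 library, and was -0.11 over the libraries with a letter alone. Over those libraries the ATF4 branch median for hydroquinone in knockout was -0.037 and the ER chaperone branch median in wild type 0.14. Over the libraries without a letter the ATF4 branch median for averaged hydroquinone was 0.21. The cause was not tested. Over all tested genes, calls for hydroquinone in wild type numbered 1, and 20 with DESeq2, 4 with the rod score, 3 with limma, 2 with other scaling, identifier form or only the groups compared, and 0 over the libraries with a letter. In knockout they numbered 7, and 14 with DESeq2, 4 with identifier form or without the 2 libraries with the fewest genes, 3 with eyes summed, 1 over the libraries without a letter, and 0 with only the groups compared or over the libraries with a letter. Averaged over genotype they numbered 13, and 37 with DESeq2, 6 with eyes summed, 2 over the libraries without a letter and 0 over those with one. Leaving out 1 library gave 1 to 3 calls in wild type, the most without exposed knockout replicate 1, 3 to 11 in knockout, the most without that same library, and 7 to 15 averaged over genotype. For the knockout under hydroquinone DESeq2 called 3 where edgeR called 0. No paired analysis was possible because the labels give no replicate numbers shared between groups; replicates were numbered in accession order. Trib3 and Asns, at 43 to 246 counts a library, have the fewest counts of the 10 and fell below the limit of 5 CPM.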

Other observations

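Among the 33 tested integrated stress response genes outside the 10, 3 had an unadjusted p below 0.05 (4.18% of all tested genes did) between knockout and wild type under hydroquinone, and they are named here after their values were seen. Slc7a11, the cystine carrier of the cystine-glutamate antiporter, measured 40.0, 63.7, 76.8 and 63.8 CPM in exposed knockouts and 25.6, 26.7, 49.35 and 39.0 CPM in exposed wild types, groups that overlapped. Its log2 fold change was 0.80 (95% interval 0.26 to 1.34; adjusted p 0.9999 in edgeR) and ran from 0.59 to 1.00 over 29 alternatives. Slc3a2, the heavy chain that pairs with this carrier and with other amino acid transporters, measured 233.5, 284, 326 and 285 CPM in exposed knockouts and 222, 223, 241 and 222 CPM in exposed wild types. Its log2 fold change was 0.31 (0.07 to 0.55; adjusted p 0.9999 in edgeR). Slc7a3, a carrier of cationic amino acids, was lower in the exposed knockouts, with a log2 fold change of -1.16 (-2.15 to -0.18; adjusted p 0.9999 in edgeR) and groups that did not overlap (0.605% of all tested genes were lower without overlap). Its exposed knockout libraries held only 13 to 23 counts each, and the value ran from -1.36 to -0.38, the latter over the libraries with a letter. The exposed knockout libraries are also those in which Herpud1 and Sesn2 were read under hydroquinone, so these values are not independent of theirs.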
